A study of Sus scrofa with 6 samples.

Results

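The genes of hypoxia sensing and of the hypoxia-inducible factors (HIFs) were examined in the ventricular myocardium of minipigs with chronic pressure overload. A list of 10 genes was matched to the gene names of the deposited table, and 7 of them were found by name among 13288 genes: HIF1A, EPAS1, HIF3A, ARNT, EGLN3, HIF1AN and ADM. EGLN1 is not named in the table, but 1 unnamed row carries its gene identifier. EGLN2 and VHL have no row of their own name or identifier. All 7 genes found by name passed the filter on low values, and EGLN1 passed it too.

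RNA was sequenced from 3 sham minipigs and 3 minipigs with descending aortic constriction (DAC). All were male Tibetan minipigs, and their tissue was taken 12 weeks after surgery. In the DAC group, a ligature narrowed the descending aorta until the pressure above it exceeded the pressure below it, which loads the left ventricle, and the sham group underwent thoracotomy without constriction. The labels name the tissue as heart and the protocol as ventricular, without giving the chamber. The values are FPKM, fragments scaled to the length of the transcript and to the mapped fragments of the library, so levels of different genes can be set side by side per length.

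In well-oxygenated cells, prolyl hydroxylases of the EGLN family use oxygen to hydroxylate the HIF alpha proteins. The von Hippel-Lindau protein VHL then binds the hydroxylated protein, and a ubiquitin ligase complex marks it for degradation. When oxygen is scarce, HIF alpha escapes this control, pairs with its partner ARNT and activates genes for glycolysis, vessel growth and iron uptake. HIF activity is thus set largely at the level of the protein, which RNA sequencing does not measure, whereas EGLN3, EGLN1 and ADM are also known target genes of HIF.

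Sums of FPKM per sample were between 281377 and 308771, and no read numbers stand behind the values, so the spread between minipigs is the only measure of precision. Mitochondrially encoded genes took up 24.0 to 25.3% of these sums in sham minipigs and more in DAC minipigs, at 27.2% in replicate 4, 32.8% in replicate 5 and 27.1% in replicate 6. The markers of cardiomyocytes, of which 9 of 12 were listed, summed to 16527 to 17493 FPKM in the sham group and 15733 to 18950 FPKM in the DAC group. All 10 fibroblast markers were listed, and their sum was 582 to 670 FPKM in the sham group and 796 to 923 FPKM in the DAC group, so the groups did not overlap. The collagen genes COL1A1 (means 94 and 165 FPKM), COL1A2 (73.3 and 110 FPKM) and COL3A1 (173 and 238 FPKM) differed most in mean FPKM. LUM (20.5 and 34.7 FPKM) had a log2 fold change of 0.74, between that of COL1A1 (0.81) and those of COL1A2 (0.59) and COL3A1 (0.46). DCN (150 and 156 FPKM), DPT (54.3 and 58.2 FPKM) and TCF21 (6.16 FPKM in both groups) differed little. By log2 fold change, 7 of the 10 were higher and 3 lower in the DAC group. All 12 endothelial markers were listed, with sums of 203 to 290 FPKM and 173 to 258 FPKM. For smooth muscle cells and pericytes (9 of 9 markers listed) the sums were 180 to 209 and 207 to 226 FPKM, and for leukocytes (8 of 11) they were 51.0 to 53.9 and 43.6 to 56.4 FPKM. For red blood cells (2 of 7) they were 11.2 to 38.5 and 5.86 to 38.2 FPKM, and for adipocytes (4 of 6) 103 to 187 and 108 to 122 FPKM. LPL made up most of the adipocyte sum, with 182, 93.8 and 136 FPKM (sham) and 111, 97.7 and 91.3 FPKM (DAC). The means of FABP4, another adipocyte marker, went the other way (8.55 FPKM in the sham group and 12.9 FPKM in the DAC group). In whole tissue, fewer cells of a type and less RNA per cell cannot be told apart.

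The groups were compared on log2(FPKM + 1) with limma over 11029 genes, those that reached 1 FPKM in 3 or more samples. A gene with an unadjusted P under 0.05 is called differentially expressed (DEG). Of the 7 genes, 1 was a DEG, ARNT, which was higher in the DAC group, and 6 were not. In the background of all genes tested, 8.51% were DEGs, 3.25% with a higher and 5.27% with a lower level in the DAC group, so the share among the 7 genes was near the background. Means in the DAC group exceeded those of the sham group for 5 of the 7 genes and were below them for 2, and all 7 log2 fold changes were within 0.35 of 0. Their median log2 fold change was 0.11, against -0.016 over all genes tested. No gene of the table reached an adjusted P under 0.05 (0% of 11029 genes, limma with Benjamini-Hochberg adjustment), whereas 939 had an unadjusted P under 0.05, and the smallest adjusted P was 0.106.

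**Figure D1:**
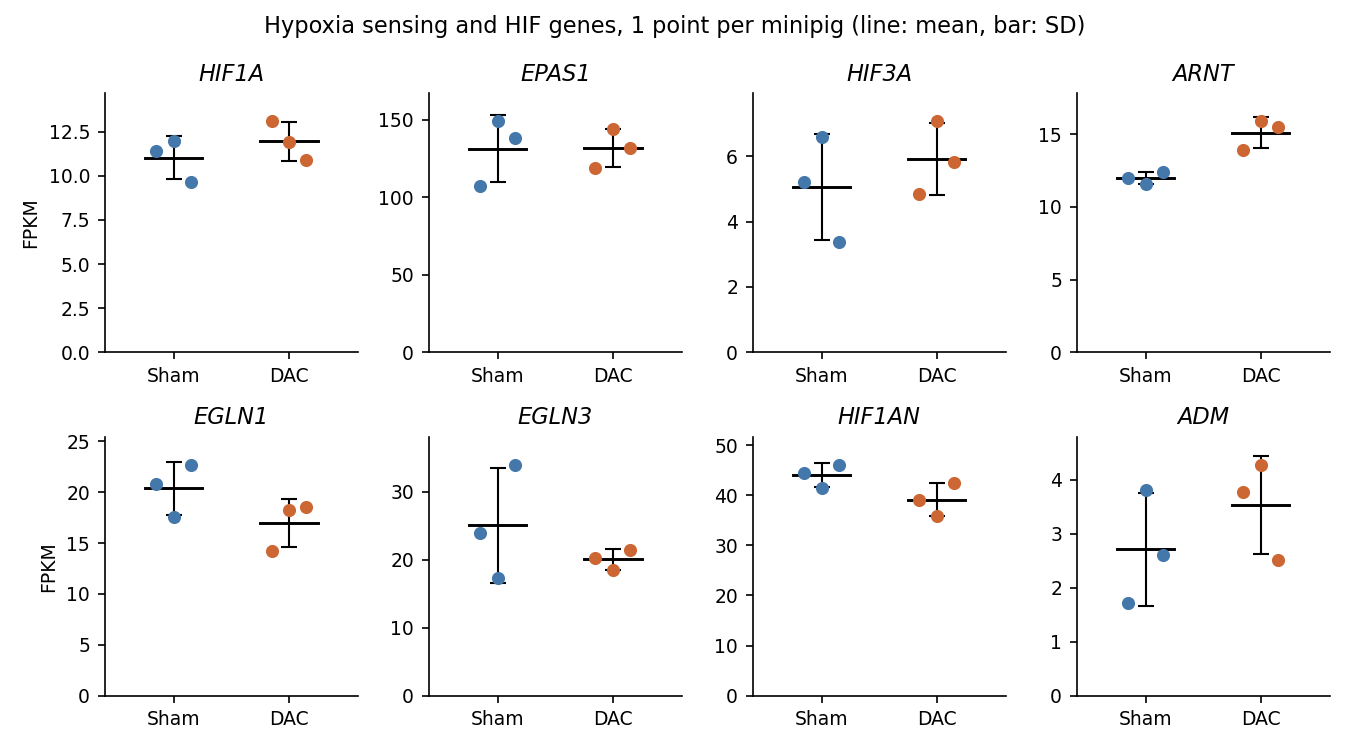
FPKM of the 8 identified genes in each sham (blue) and DAC (orange) minipig, with the group mean as a line and the SD as a bar; every vertical axis starts at 0. The DAC points lie above all sham points for ARNT, and the groups overlap in the other panels.

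EPAS1 was the most abundant of the 8 identified genes, at 107 to 149 FPKM over the 6 samples, and lay above 98.0% of the genes tested. HIF1AN came next at 35.8 to 46.1 FPKM, with no overlap with EPAS1. EGLN3 (17.3 to 34.0 FPKM), EGLN1 (14.2 to 22.7 FPKM), ARNT (11.6 to 15.9 FPKM) and HIF1A (9.66 to 13.1 FPKM) formed a middle range in which each gene overlapped its neighbour. HIF3A (3.36 to 7.07 FPKM) and ADM (1.72 to 4.28 FPKM) were the least abundant and overlapped each other.

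Among the oxygen-regulated alpha subunits, no difference between the groups was detected. HIF1A (ENSSSCG00000005096, chromosome 1 from 190625181 to 190674850), the broadly expressed alpha subunit that drives glycolytic genes, was at 11.4, 12 and 9.66 FPKM in sham replicates 1 to 3 and at 13.1, 11.9 and 10.9 FPKM in DAC replicates 4 to 6. With overlapping groups, HIF1A had a log2 fold change of 0.11 (95% interval -0.17 to 0.40, adjusted P = 0.803, limma), which was 0.03 with sham replicate 3 left out, 0.05 with DAC replicate 4 left out and 0.17 when sham replicate 2 or DAC replicate 6 was omitted. EPAS1 (ENSSSCG00000008443, chromosome 3 from 94165815 to 94254079) encodes HIF-2 alpha, which is best known from endothelial cells. It was at 107, 149 and 138 FPKM in the sham group and at 119, 144 and 132 FPKM in the DAC group. The lowest value belonged to sham replicate 1, which also had the lowest endothelial marker sum of its group (203 FPKM). In the DAC group, replicate 5 had the highest EPAS1 value and the lowest endothelial marker sum (173 FPKM). The part of endothelial content in these values was not tested. The group means of EPAS1 were 131 ± 21.8 and 131 ± 12.8 FPKM (SD, n = 3 each), with a log2 fold change of 0.01 and a 95% interval of -0.34 to 0.37.

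HIF3A (ENSSSCG00000003101, chromosome 6 from 52342909 to 52376339) encodes an alpha subunit with splice forms that can restrain the other HIFs. Its level was 5.21, 6.58 and 3.36 FPKM in the sham group and 4.85, 7.07 and 5.83 FPKM in the DAC group. The groups overlapped, with a log2 fold change of 0.22 (95% interval -0.30 to 0.74), and without sham replicate 3, the lowest sample, it was -0.000449. In the summed FPKM of the 3 alpha genes, EPAS1 held 86.5 to 91.4% in the sham samples and 86.9 to 88.7% in the DAC samples. HIF1A held 6.41 to 9.25% and 7.30 to 9.58%, and HIF3A held 2.23 to 4.22% and 3.55 to 4.33%. The mean share of EPAS1 was 88.9 ± 2.42% in the sham group and 88.0 ± 0.974% in the DAC group (SD, n = 3 each), a difference within the spread between minipigs (exact two-sided permutation P = 0.60, for which 0.10 is the smallest value that 3 against 3 allow).

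**Figure D2:**
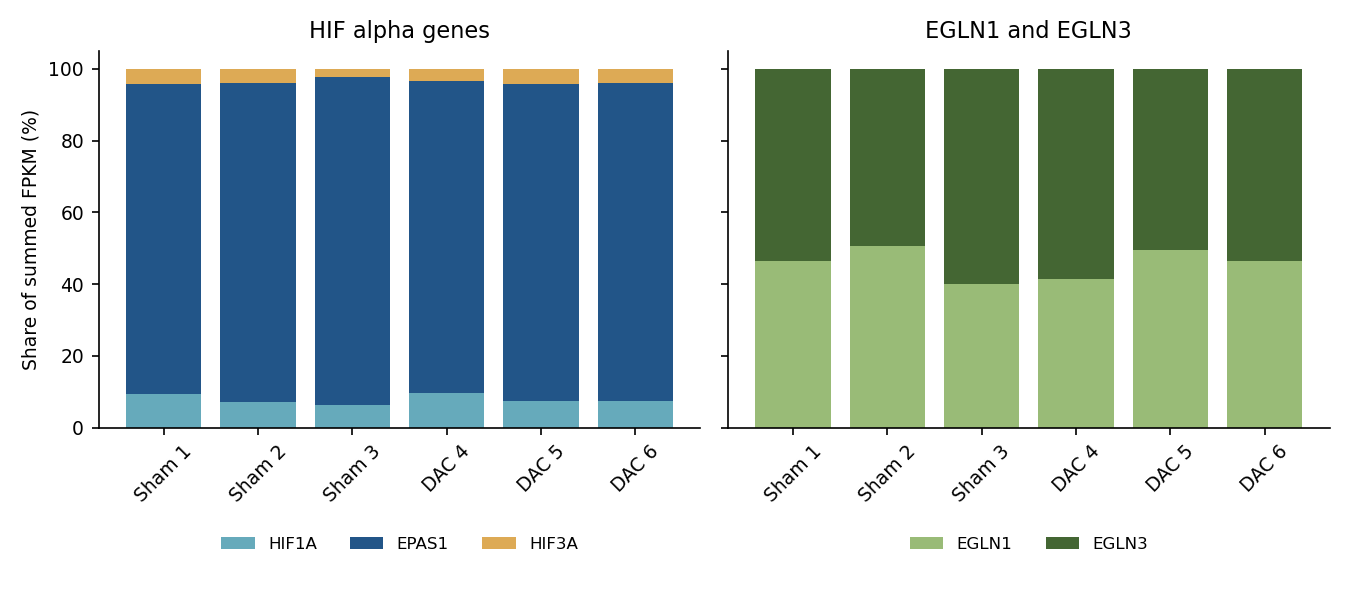
Stacked bars give, for each minipig, the share (%) of HIF1A, EPAS1 and HIF3A in their summed FPKM (left) and of EGLN1 and EGLN3 in theirs (right). EPAS1 fills 86.5 to 91.4% of the left bars in both groups, and EGLN3 fills 49.5 to 59.9% of the right bars.

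ARNT was the only one of the 7 genes to be a DEG. ARNT (ENSSSCG00000006646, chromosome 4 from 98333459 to 98404961) encodes HIF-1 beta, the constitutive partner of the alpha subunits, which also pairs with the aryl hydrocarbon receptor. Its level was 12, 11.6 and 12.4 FPKM in the sham minipigs and 13.9, 15.9 and 15.5 FPKM in the DAC minipigs. Each DAC sample was higher than each sham sample, and 14.9% of the genes tested were likewise separated in either direction. The means were 12 ± 0.412 and 15.1 ± 1.07 FPKM (SD, n = 3 each), a log2 fold change of 0.31 with a standard error of 0.101 and a 95% interval of 0.07 to 0.55. This is a 1.24-fold higher level on the log2(FPKM + 1) scale, and it did not pass correction over all genes (adjusted P = 0.522, limma).

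The call of ARNT was lost without sham replicate 2, where the log2 fold change was 0.29. With the mitochondrially encoded genes left out and the rest rescaled, ARNT was still a DEG, with a log2 fold change of 0.35. The fibroblast marker sum and the mitochondrial share separated the groups in the same direction as ARNT, and the part of the fibroblast markers in its difference was not tested. The annotated positions of ARNT and its neighbour CTSS, a lysosomal protease of immune cells, share 14712 bases on the same strand, from 98390250 to 98404961. CTSS was at 2.41, 2.42 and 3.09 FPKM in the sham group and at 2.37, 4.55 and 3.28 FPKM in the DAC group. The rule for reads from the shared bases is not given in the sources used here.

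The level of ARNT relative to the alpha subunits was compared within samples, where scaling has no effect. The ratio of ARNT to HIF1A was 1.05, 0.968 and 1.28 in the sham group and 1.06, 1.34 and 1.42 in the DAC group, with overlap between the groups (exact two-sided permutation P = 0.20). EPAS1 exceeded ARNT 8.90, 12.9 and 11.1 times in the sham group and 8.52, 9.04 and 8.47 times in the DAC group. This ratio also overlapped between the groups (exact two-sided permutation P = 0.20).

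The oxygen-sensing hydroxylases had lower means in the DAC group, none of them as a DEG. EGLN3 (ENSSSCG00000001963, chromosome 7 from 65805500 to 65833536) encodes PHD3, the prolyl hydroxylase most strongly induced by hypoxia in many cells. It was at 23.9, 17.3 and 34.0 FPKM in the sham group and at 20.2, 18.5 and 21.5 FPKM in the DAC group. The sham samples spread from the lowest to the highest value of all 6, whereas the DAC samples were close together. The means were 25.1 ± 8.44 and 20.0 ± 1.49 FPKM (SD, n = 3 each), with a log2 fold change of -0.26 (95% interval -0.79 to 0.27, adjusted P = 0.757, limma). Without sham replicate 2, the lowest sham sample, EGLN3 was a downregulated DEG with a log2 fold change of -0.49, and without sham replicate 3 its log2 fold change was -0.02.

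EGLN1 (ENSSSCG00000010172, chromosome 14 from 59112899 to 59168395) encodes PHD2, the main oxygen sensor that keeps HIF1A low. It was at 20.8, 17.6 and 22.7 FPKM in the sham group and at 14.2, 18.2 and 18.5 FPKM in the DAC group. Sham replicate 2 lay within the DAC range, and the log2 fold change was -0.25 (95% interval -0.60 to 0.10), or -0.13 without DAC replicate 4, the lowest sample. EGLN3 made up 53.5, 49.5 and 59.9% of EGLN1 and EGLN3 together in the sham samples and 58.7, 50.4 and 53.7% in the DAC samples. The mean share was 54.3% in each group, with an SD of 5.24 in the sham group and 4.17 in the DAC group (n = 3 each).

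HIF1AN (ENSSSCG00000010555, chromosome 14 from 111636376 to 111652527) encodes the asparaginyl hydroxylase FIH, which blocks the binding of coactivators to HIF alpha. Its level was 44.4, 41.4 and 46.1 FPKM in the sham group and 39.1, 35.8 and 42.5 FPKM in the DAC group. The groups overlapped by 1 sham and 1 DAC sample, and the log2 fold change was -0.17 (95% interval -0.42 to 0.09, adjusted P = 0.688, limma), or -0.10 without DAC replicate 5, the lowest sample. An unnamed gene inside its position was at 0 to 0.122 FPKM in the sham group, at 1.33 FPKM in DAC replicate 5 and at 0.1 and 0.141 FPKM in the other DAC samples.

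The positions of VHL and EGLN2 in the RefSeq annotation of Sscrofa11.1 were looked up in the table, since neither gene has a row of its own name. At VHL, the substrate receptor of the ubiquitin ligase, lies 1 unnamed gene (ENSSSCG00000011567, chromosome 13 from 66334591 to 66342654). It was at 3.83, 4.36 and 2.05 FPKM in the sham group and at 2.94, 2.79 and 2.57 FPKM in the DAC group. The groups overlapped, with a log2 fold change of -0.19 (95% interval -0.69 to 0.31). At EGLN2, which encodes the prolyl hydroxylase PHD1, lie 3 rows that overlap each other, of which 1 carries the identifier of the neighbouring gene RAB4B. Of the other two, ENSSSCG00000041114 was at 5.63, 7.44 and 7.71 FPKM in the sham group and at 6.43, 5.37 and 6.46 FPKM in the DAC group. ENSSSCG00000002995 was at 1.06, 6.02 and 0.575 FPKM in the sham group and at 3.59, 3.18 and 4.67 FPKM in the DAC group. Neither was a DEG, and these values are not assigned to EGLN2 because the rows share their positions.

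**Figure D3:**
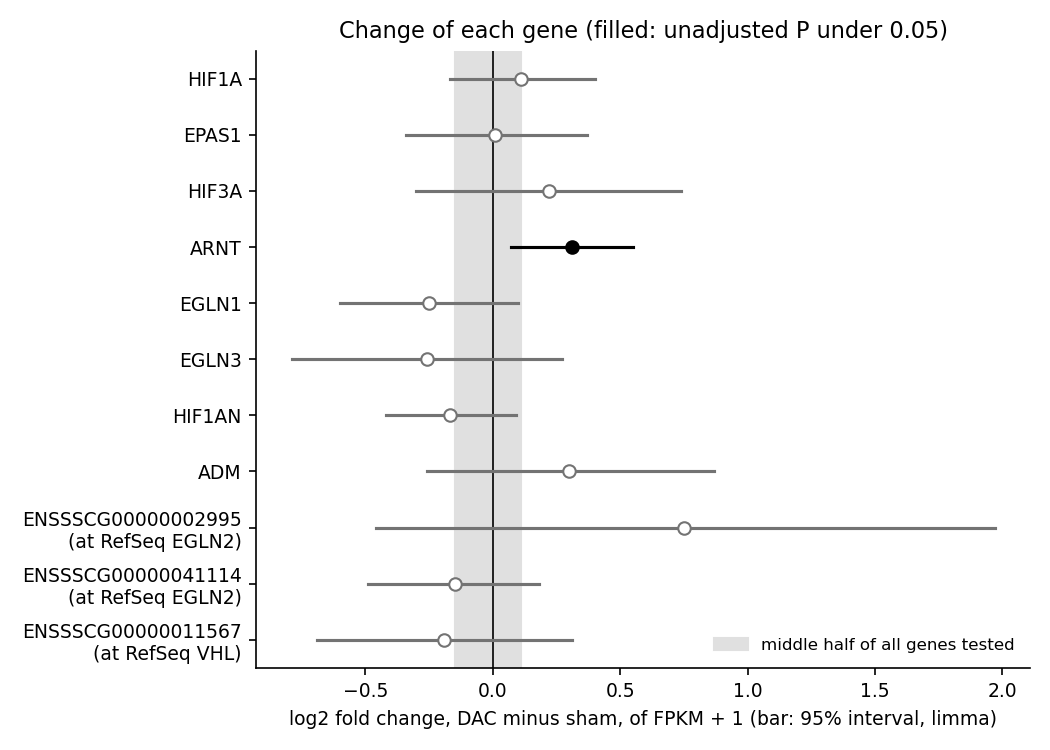
Points give the log2 fold change of FPKM + 1 (DAC minus sham) for the 8 identified genes and for 3 unnamed genes at the RefSeq positions of EGLN2 and VHL, with 95% intervals from limma as bars and the range from the lower quartile (-0.15) to the upper quartile (0.11) of all genes tested in grey. The interval of ARNT, 0.07 to 0.55, is the one that does not include 0.

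ADM is both a HIF target and a secreted peptide. ADM (ENSSSCG00000013408, chromosome 2 from 49229223 to 49231866) encodes adrenomedullin, a vasodilator that is released by the loaded heart and by vessels. It was at 1.72, 3.81 and 2.61 FPKM in the sham group and at 3.78, 4.28 and 2.52 FPKM in the DAC group. The groups overlapped, and the means were 2.71 ± 1.05 and 3.53 ± 0.905 FPKM (SD, n = 3 each). The log2 fold change was 0.30 (95% interval -0.26 to 0.87, adjusted P = 0.733, limma), and at this low level the scale with a pseudocount of 1 understates a change. The log2 fold change of ADM dropped to 0.10 when sham replicate 1 was left out and to 0.18 when DAC replicate 5 was. It was 0.51 with sham replicate 2 omitted and 0.47 with DAC replicate 6 omitted.

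Of 13 genes of adrenomedullin processing, reception and clearance, 8 were listed and tested, 1 was a downregulated DEG and none was upregulated, beside a background of 5.27% downregulated and 3.25% upregulated. A single gene of 8 is not a result about the list. DAC means were below sham means for 6 of the 8, with a median log2 fold change of -0.20. RAMP1, the receptor activity-modifying protein that turns CALCRL into a receptor for calcitonin gene-related peptide, was at 273, 277 and 278 FPKM in the sham group and at 202, 239 and 234 FPKM in the DAC group. Its log2 fold change was -0.30 (adjusted P = 0.553, limma; standard error 0.105), and the call was lost without sham replicate 1, 2 or 3 and after median scaling. RAMP2, with which CALCRL forms the main adrenomedullin receptor, was at 43.4, 75.4 and 61.5 FPKM and at 49.8, 46.3 and 70.6 FPKM. CALCRL itself was at 1.78, 6.74 and 2.26 FPKM in the sham group and at 6.68, 3.05 and 7.47 FPKM in the DAC group, so the groups overlapped. The remaining genes tested, PAM, which amidates adrenomedullin, RAMP3, ACKR3, MME and CRCP, had log2 fold changes from -0.56 (ACKR3) to 0.13 (PAM), and the groups overlapped in each.

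Of 27 genes for partners of HIF and for its degradation, 23 were tested, of which 2 were downregulated DEGs and none was upregulated. This was near the background, where 8.51% of all genes tested were DEGs and 5.27% were downregulated. Without sham replicate 2, 1 of the 23 was upregulated and 2 were downregulated, and without DAC replicate 6 there was 1 in each direction. The background shares of those fits are not given here. DAC means were above sham means for 11 and below them for 12, with a median log2 fold change of -0.000584. SIAH2, a ubiquitin ligase that degrades EGLN proteins, was at 16.7, 16.5 and 23.4 FPKM in the sham group and at 14.5, 12.8 and 15.2 FPKM in the DAC group. Its log2 fold change was -0.38 with a standard error of 0.156 (adjusted P = 0.585, limma). The call of SIAH2 was lost without sham replicate 3 or any DAC replicate, after quantile normalization, with mitochondrially encoded genes left out and with the variance of SIAH2 alone. The coactivators EP300 (log2 fold change 0.02) and CREBBP (0.05), and the VHL complex members CUL2 (-0.10), ELOB (-0.09), ELOC (0.10) and RBX1 (0.14), were not DEGs. ARNT2, a paralog of ARNT, was below the filter at 0.382 to 1.22 FPKM.

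UBE2D1 had the largest absolute log2 fold change of these 23 genes. UBE2D1 (chromosome 14 from 92294642 to 92382213), a ubiquitin-conjugating enzyme that works with many ubiquitin ligases, was at 19.2, 23.8 and 24.4 FPKM in the sham group and at 6.96, 8.74 and 8.73 FPKM in the DAC group. The groups lay far apart, with a log2 fold change of -1.36, a standard error of 0.14 and an adjusted P of 0.124 (limma). An unnamed gene, ENSSSCG00000035762 (chromosome 14 from 92296339 to 92384468), covers 98.1% of the position of UBE2D1 on the same strand. This gene, named here after its values were seen, was at 3, 3.95 and 4.12 FPKM in the sham group and at 11.1, 11.3 and 12.8 FPKM in the DAC group. Its log2 fold change was 1.44, and it had the smallest adjusted P of all genes tested (0.106, limma). The pair thus differed between the groups in opposite directions over nearly the same stretch. Added together they were at 26.2 ± 3.47 FPKM in the sham group and 19.9 ± 1.73 FPKM in the DAC group (SD, n = 3 each, exact two-sided permutation P = 0.10, the smallest value possible). The pair was put together after its values were seen, so this P is not support for a difference. FPKM is scaled by the length of each gene's transcript, so the sum is not a level of the shared stretch. The level of either gene alone is uncertain, because the assignment of shared reads is not given in the sources used here.

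Known target genes of HIF included DEGs in both directions. Of 64 genes in the list, 53 were tested, of which 3 were upregulated and 6 downregulated DEGs and 44 were not DEGs, beside background shares of 3.25% upregulated and 5.27% downregulated. Leaving out 1 sample at a time gave 6 to 9 DEGs in all, of which 1 was upregulated without sham replicate 1 or DAC replicate 6. DAC means were above sham means for 24 and below them for 29 genes, with a median log2 fold change of -0.06, against -0.016 over all genes tested. After quantile normalization 6 were upregulated and 6 downregulated, and with mitochondrially encoded genes left out 4 were upregulated and 5 downregulated. The shares of DEGs among all genes tested are not given here for these fits or for those without 1 sample. EPO, SLC2A1, CA12, IGFBP3 and TF are not in the table, and CA9, ADORA2B, ANKRD37, ANGPT2, PFKFB3 and SLC16A3 were below the filter.

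**Figure D4:**
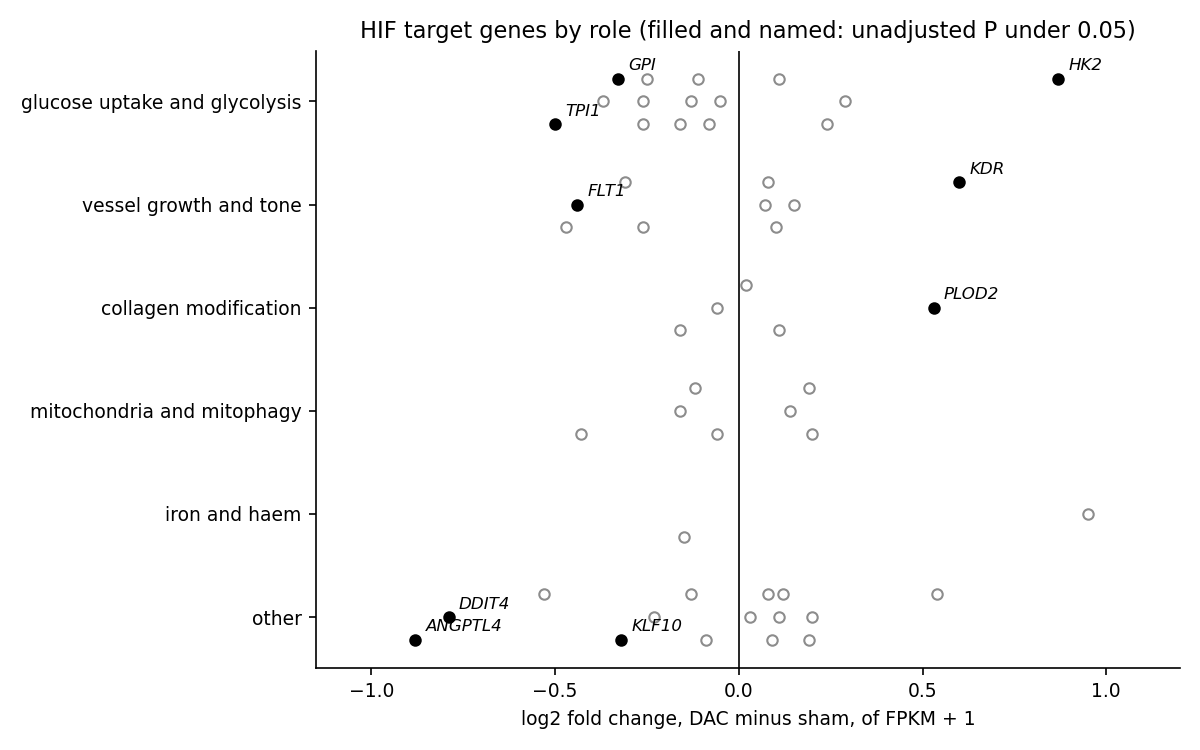
Each point is 1 of 53 tested HIF target genes, placed by its log2 fold change of FPKM + 1 (DAC minus sham) in rows by role. The roles were assigned after the values were seen, and the vertical offset within a row only separates points. The 9 DEGs are filled and named, with 3 on the right of 0 (HK2, KDR and PLOD2) and 6 on the left.

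The roles of the targets were assigned after their values were seen, so counts by role are a description. Glucose uptake and glycolysis was the role of 15 tested targets. DAC means were below sham means for 11 of them, 2 were downregulated DEGs and 1 was upregulated. Of all genes tested, 5.27% were downregulated and 3.25% upregulated DEGs, and 46.6% had a higher DAC mean. TPI1, triosephosphate isomerase, was at 216, 211 and 232 FPKM in the sham group and at 146, 156 and 164 FPKM in the DAC group, and part of its position is shared with SPSB2 on the other strand, which was at 0.764 to 1.45 FPKM. GPI, the isomerase that follows hexokinase, was at 82.9, 85.4 and 74.0 FPKM and at 57.5, 63.6 and 71.1 FPKM, with a log2 fold change of -0.33, and its call was lost without sham replicate 1 or 2 or DAC replicate 4 or 5. The annotated position of GPI contains that of GARRE1, which was at 10.3 ± 2.38 FPKM in the sham group and 12.2 ± 0.421 FPKM in the DAC group (SD, n = 3 each). HK2, the inducible hexokinase, went the other way, with 1.92, 4.11 and 1.85 FPKM in the sham group and 4.85, 3.25 and 9.42 FPKM in the DAC group. The groups overlapped, DAC replicate 6 stood above the rest, and the log2 fold change of HK2 was 0.87 with all samples and 0.51 without that replicate. The call of HK2 was lost without it, sham replicate 1, sham replicate 3 or DAC replicate 4, and with the variance of HK2 alone.

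Targets for vessel growth and tone were split, with 1 upregulated and 1 downregulated DEG among 9 tested, beside background shares of 3.25% and 5.27%. FLT1, a receptor that traps vascular endothelial growth factor, was at 27.2, 35.5 and 34.3 FPKM in the sham group and at 20.7, 24.3 and 25.4 FPKM in the DAC group. The groups did not overlap, the log2 fold change was -0.44 (95% interval -0.78 to -0.11, adjusted P = 0.522, limma), and the call was lost without sham replicate 2 or 3. KDR, the main signaling receptor for the same factor, was at 11.7, 16.6 and 9.36 FPKM in the sham group and at 18, 15.3 and 25 FPKM in the DAC group. The groups of KDR overlapped and its log2 fold change was 0.60, and its call was lost without sham replicate 1 or 3 or DAC replicate 4 or 6 and with the variance of KDR alone. KDR is also 1 of the 12 endothelial markers. Of these 12, 2 were upregulated and 3 downregulated DEGs, beside background shares of 3.25% and 5.27%. The log2 fold changes of the markers ran from -1.22 (CLDN5) to 0.60 (KDR) with a median of -0.24. The part of endothelial content in the values of FLT1 and KDR was not tested. VEGFA, the growth factor itself, was at 105, 144 and 72.4 FPKM in the sham group and at 98.8, 102 and 150 FPKM in the DAC group, which gave a log2 fold change of 0.15 with a 95% interval of -0.49 to 0.79.

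Among the 5 targets that modify collagen, PLOD2 was an upregulated DEG and 4 genes were not DEGs, beside a background of 3.25% upregulated. PLOD2, a lysyl hydroxylase for collagen cross-links, was at 2, 2.73 and 2.22 FPKM in the sham group and at 4.18, 3.23 and 3.93 FPKM in the DAC group, without overlap. The log2 fold change of PLOD2 was 0.53, with a standard error of 0.134 (adjusted P = 0.482, limma). The prolyl hydroxylases P4HA1 and P4HA2 (log2 fold changes -0.06 and -0.16), PLOD1 (0.02) and the lysyl oxidase LOX (0.11) were not DEGs. The fibroblast marker sum separated the groups in the same direction as PLOD2, and its part in the difference was not tested.

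Further downregulated targets were ANGPTL4, DDIT4 and KLF10. ANGPTL4, an inhibitor of lipoprotein lipase that fasting also induces, was at 9.75, 12.7 and 11.0 FPKM in the sham group and at 6, 4.5 and 6.4 FPKM in the DAC group. The groups of ANGPTL4 did not overlap, with a log2 fold change of -0.88 and a standard error of 0.154 (adjusted P = 0.335, limma). DDIT4, a stress-induced brake on mTOR signaling, was at 83.1, 90.1 and 78.1 FPKM and at 53, 46.2 and 45 FPKM, and lies within the position of ASCC1 on the other strand, which was at 1.17 to 1.59 FPKM. KLF10, a transcription factor induced by TGF-beta, was at 8.39, 11.2 and 11.6 FPKM in the sham group and at 7.81, 8.14 and 8.11 FPKM in the DAC group, and among the 6 fits that left out 1 sample its call was kept in the one without sham replicate 1. The call of KLF10 was also lost after median scaling, quantile normalization, without mitochondrially encoded genes and with the variance of KLF10 alone. None of the 7 tested targets for mitochondria and mitophagy was a DEG, beside 8.51% of all genes tested. Their log2 fold changes ran from -0.43 (BNIP3) to 0.20 (COX4I2). TFRC, the transferrin receptor, had the highest log2 fold change of the list at 0.95, but its values of 13.6, 23.8 and 32.4 FPKM in the sham group and 29.3, 77.1 and 36 FPKM in the DAC group overlapped and it was not a DEG.

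**Figure D5:**
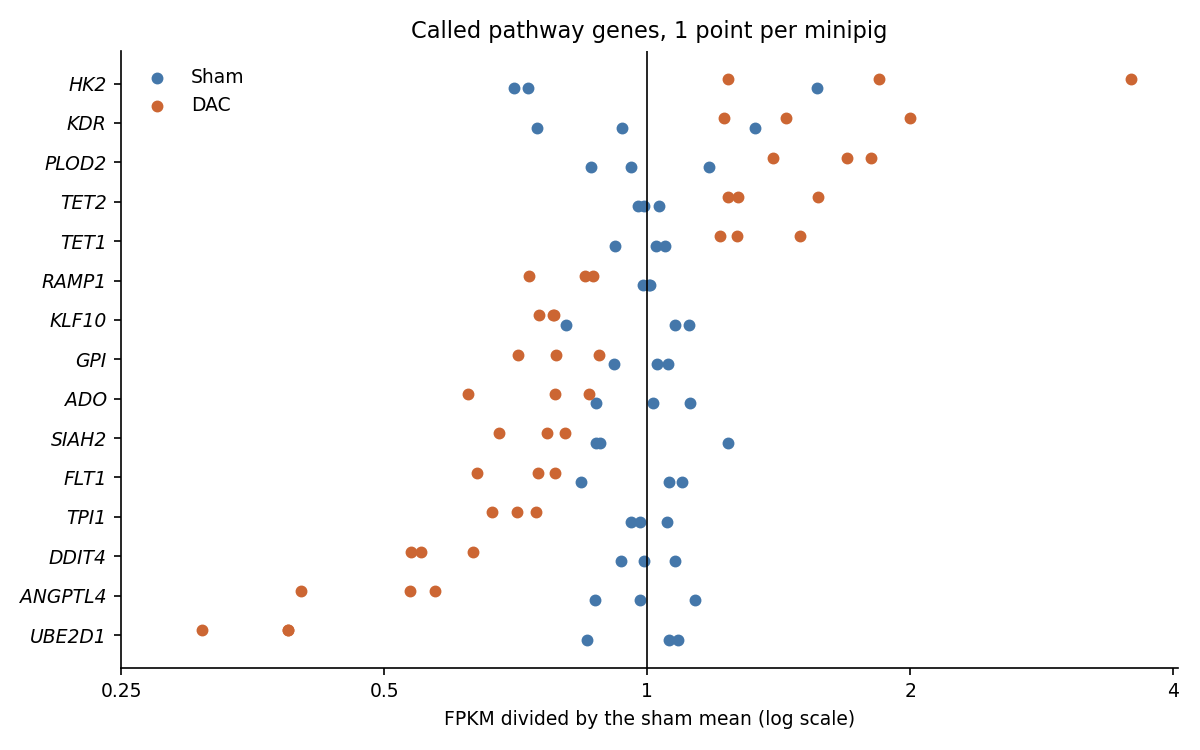
FPKM of the 15 DEGs of the 4 pathway lists in each sham (blue) and DAC (orange) minipig, divided by the sham mean of the gene, on a log axis. UBE2D1, ANGPTL4 and DDIT4 lie farthest to the left in the DAC group, and in HK2 and KDR the points of the groups overlap.

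Other oxygen-dependent dioxygenases, which share the need for oxygen and iron with the EGLN enzymes, were compared last. The list also counts P4HB, a subunit of collagen prolyl hydroxylase that is not itself a dioxygenase and was not a DEG. Of 24 tested genes, 2 were upregulated and 1 was a downregulated DEG, beside background shares of 3.25% and 5.27%, and the median log2 fold change was -0.00438. TET2, which oxidises methylcytosine in DNA, was at 6.71, 6.83 and 7.09 FPKM in the sham group and at 8.75, 10.8 and 8.51 FPKM in the DAC group. The groups of TET2 did not overlap, and its log2 fold change was 0.39 with a standard error of 0.118 (adjusted P = 0.508, limma). TET1, of the same family, was at 2.53, 2.27 and 2.59 FPKM and at 2.99, 3.13 and 3.69 FPKM, a log2 fold change of 0.30. ADO, a cysteamine dioxygenase that senses oxygen through N-terminal cysteines, was at 12.9, 11.1 and 14.2 FPKM in the sham group and at 7.91, 9.96 and 10.9 FPKM in the DAC group. Every DAC value of ADO was below every sham value, and its log2 fold change was -0.38 with a standard error of 0.148 (adjusted P = 0.581, limma). The call of TET1 was lost without any 1 of the sham replicates or DAC replicate 6. The call of ADO was lost without sham replicate 1 or 3 or DAC replicate 4 or 5, after quantile normalization and with the variance of ADO alone.

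Genes with the most similar profile over the 6 samples were looked up for the 3 identified genes with the smallest P. For ARNT these included PTAFR (Pearson's r = 0.985) and EHBP1 (0.985), and EHBP1 was at 8.90, 8.15 and 9.05 FPKM in the sham group and at 11.3, 13.5 and 14.6 FPKM in the DAC group. PTAFR was at 0.633, 0.637 and 0.742 FPKM in the sham group and at 1.06, 1.97 and 1.61 FPKM in the DAC group. It reached the 1 FPKM of the filter in the DAC samples only, which favours a match with ARNT, so this match is not support. For EGLN1 they were HEXA (0.997), COPE (0.994) and NDUFV1 (0.994), and NDUFV1 was at 228, 192 and 251 FPKM and at 150, 189 and 198 FPKM. For HIF1AN they were ST6GALNAC4 (0.998), TMC6 (0.989) and CLEC2B (0.984). These correlations describe 6 samples that share their libraries, taken as the highest among the tested genes with a symbol. Each of the 3 profiles includes the difference of its gene between the groups, with log2 fold changes of 0.31 (ARNT), -0.25 (EGLN1) and -0.17 (HIF1AN). The named matches had log2 fold changes of the same sign, from -0.66 (CLEC2B) to -0.09 (COPE) for EGLN1 and HIF1AN. CLEC2B was low, with 3.46, 2.34 and 4.49 FPKM in the sham group and 2.02, 0.994 and 2.47 FPKM in the DAC group.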

How the data were processed

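RNA from ventricular tissue of 3 sham and 3 DAC minipigs was compared, with 1 column of FPKM per minipig deposited by the authors. Libraries were made with the NEBNext Ultra kit and read as paired ends, and the submitters' processing notes name HISAT2 and susScr11. The program that made the FPKM and its handling of shared reads are not given in the sources used here. The table lists genes whose highest sample reaches 0.5 FPKM. No steps of whole reads were visible, since at most 6 genes of at least 3459 shared a ratio between samples, so the depth is unknown. A symbol was added by gene identifier to 519 of 2440 genes without one. Of 10145 symbols shared with RefSeq, 99.82% lay at an overlapping position of Sscrofa11.1.

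R 4.3.3 with limma 3.58.1 (linear model, trend, moderated test) was fitted to log2(FPKM + 1) for genes that reached 1 FPKM in 3 or more samples. The DEG threshold (unadjusted P under 0.05) follows the study. P was adjusted by the Benjamini-Hochberg method over the 11029 genes. The labels name no batch, and the groups share no replicate numbers. Shares were compared by an exact two-sided permutation test over samples. The limma fit was tested on simulated data, and the other steps were not. The genes, lists and rules were chosen with earlier results of these data known, and the roles of target genes were assigned after seeing the values. The share of EGLN genes used EGLN1 and EGLN3, since EGLN2 had no row of its own. All listed genes were named, with up to 6 DEGs per list and direction by smallest P, and for 3 genes the 3 most correlated genes, of which 1 is not reported here. The other genes named in the adrenomedullin, partner, target and neighbour sets were chosen after their values were seen.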

Additional observations from a re-analysis of the deposited data

How the results depend on the processing

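Tried in turn were the table without a filter, a minimum of 5 FPKM in 3 samples, a pseudocount of 0.1, median scaling, quantile normalization, mitochondrially encoded genes left out, unmoderated variances, a DEG threshold of 0.01 and each sample left out in turn. Of 295 values of the 23 genes followed, 244 kept their direction and their side of the threshold, 47 from 10 genes were no longer DEGs, 1 became a DEG and 3 changed sign. ARNT was a DEG in 5 of the 6 fits that left out 1 sample (log2 fold change 0.27 to 0.37), and UBE2D1, PLOD2, DDIT4, ANGPTL4, TPI1 and TET2 in 6 of 6. The log2 fold change of EPAS1 was between -0.13 (without sham replicate 1) and 0.11, and that of HIF3A between -0.000449 (without sham replicate 3) and 0.40. At the threshold of 0.01, the number of DEGs was 0 among the 7 genes, 4 among HIF targets, 1 among partners and degradation genes, 0 in the adrenomedullin list and 0 among dioxygenases. The share of all genes tested that were DEGs is not given here for this threshold or for the alternative fits. The counts in this section are thus not a result about the lists. Partners and degradation genes had 1 DEG after quantile normalization and 1 to 3 with a sample left out (3 in the absence of sham replicate 2, 1 without sham replicate 3, DAC replicate 4 or DAC replicate 5). The adrenomedullin list had 0 after median scaling, 0 without sham replicate 1 or 3, and 2 without sham replicate 2 or DAC replicate 6. The dioxygenases had 1 to 3 with a sample left out, with 1 without sham replicate 1 or 3. The causes were not tested. The median log2 fold change of the HIF targets was between -0.12 and -0.02 over the alternatives, without the threshold. The depth behind each value is unknown, so its effect on the precision was not assessed.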

Other observations

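Over the 6 samples, some of the 28 pairs among the 8 identified genes ran in opposite directions. The level of HIF3A was lowest in sham replicate 3, where EGLN3 was highest, and Pearson's r of their log2(FPKM + 1) was -0.92 over 6 samples. HIF1A and EGLN1 had an r of -0.90 and HIF1A and EGLN3 one of -0.82, while EGLN1 and EGLN3 had an r of 0.71. These pairs were picked after all were seen, share the same libraries and are given as a description. EGLN1 and EGLN3 had their lowest sham values in the same minipig, sham replicate 2, which had the highest sham levels of HIF1A, HIF3A, EPAS1 and ADM.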
